A study of Carassius auratus with 10 samples.

Results

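The genes examined here build, fold, modify and carry secreted proteins: enzymes and chaperones of the endoplasmic reticulum (ER), the hydroxylases and chaperones of collagen, the channel and peptidase through which new proteins enter the ER, and the coats and receptors that move cargo between ER and Golgi. Members were chosen by name alone, as every gene symbol that began with *pdia*, *p4ha*, *p4hb*, *plod*, *serpinh1*, *calr*, *canx*, *sec* or *ssr* with a digit, *spcs*, *kdelr*, a COPI coat name, *xbp1*, *ddit3*, *ero1*, *lman* or *mia3*. This gave 59 of 17474 gene symbols, carried by 136 of the 51399 unigenes with a gene name. A unigene is a cluster of assembled transcripts, and a gene here is the sum over the unigenes that share its symbol. The letters of the rule also took in *sec14l1*, a lipid transfer protein outside the secretory pathway, which was counted with the members.

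RNA came from radial glial cells (RGCs), the glia that line the brain ventricles of fish and act as neural progenitors, grown from telencephalon and hypothalamus of female goldfish and taken at passage 3. The labels name 4 untreated control cultures, 3 cultures given 1000 nM secretoneurin A (SNa, a peptide cut from a secretogranin precursor) and 3 given 10 µM SKF, an agonist of the dopamine D1 receptor, each for 24 h. For the controls of the SNa comparison, the study's methods state 3 cultures. Of the 4 labelled controls, 1 has a title of another form than the rest, without a culture number. Which cultures entered the control pool is not shown. The deposited tables hold 1 value per group and unigene, pooled over the cultures, so that no difference below has a replicate check and no test was run. A gene was called higher or lower where its log2 fold-change passed 0.5, the cut the study used, and the interval beside a fold-change is a 95% counting interval that leaves out the spread between cultures. Both comparisons use the same control pool.

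Proteins bound for secretion enter the ER through the SEC61 channel, lose their signal peptide to the signal peptidase and fold with the help of lectin chaperones and disulfide isomerases. Collagen needs more: prolyl and lysyl hydroxylases modify the chains so that the triple helix is stable and can be cross-linked, the chaperone HSP47 (encoded by *serpinh1*) holds the helix, and TANGO1 (encoded by *mia3*) loads the large molecule into COPII carriers. COPI carriers and KDEL receptors return escaped ER proteins. When folding falls behind, ER stress sensors raise transcription factors such as XBP1 and CHOP (encoded by *ddit3*).

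The pools held 147886694 control, 64778968 SNa and 86711702 SKF reads. Members took 0.619% of control reads, 0.707% of SNa reads and 0.716% of SKF reads. All 59 passed the minimum of a mean normalised value of 10 in both comparisons. The labelled cell type was checked against markers. Of the radial glia markers, *gfap* stood at 1622 CPM (a gene's share of its pool's reads, scaled to counts-per-million) in the control pool and *vim* at 3697, and none of the 16 symbols found was at 0 there. In so deep a pool this asks little, and *slc1a2b* was present on 4 control reads. Of the 15 markers listed, 12 were found by symbol. The aromatase gene *cyp19a1b* and *her4* were not found under these symbols. Summed over the list, radial glia markers came to 9051 CPM in the control, 5194 in the SNa and 5308 in the SKF pool, with 10 of 15 tested symbols lower and 2 higher after SNa, and 9 lower and 1 higher after SKF. Markers of fibroblasts and mural cells, cells that make much collagen, summed to 24468, 35581 and 35758 CPM. Much of this sum was collagen itself, with *col1a1a* at 7924, 13153 and 13541 CPM and *col1a2* at 4119, 6148 and 6550. Of the fibroblast and mural markers, 10 of 18 tested symbols were higher and 1 lower after SNa, and 12 of 21 higher and 2 lower after SKF. Lens genes, already known from earlier work to fall in both treated pools, summed to 471, 19.0 and 14.3 CPM. Markers of neurons came to 44.3, 43.2 and 42.3 CPM, a sum over symbols that moved both ways. After SNa 3 of 8 tested neuron symbols were lower and 1 higher, and after SKF 5 of 10 were lower and 2 higher. Endothelial markers came to 110, 38.6 and 38.5 CPM, most of it *cldn5a* (-1.77 and -1.78), with 2 of 4 tested symbols above the control and 2 below. Of 10 microglial markers 3 were found, at 612, 656 and 595 CPM. Nearly all of this was *apoeb*, at 587, 635 and 572 CPM. The other microglial symbols went opposite ways, *ptprc* at 0.63 and 0.99 and *aif1l* at -0.32 and -0.30. In pooled RNA, a different share of a cell type and a different amount of RNA per cell cannot be told apart.

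After SNa, 7 of the 59 members were higher than the control, where 12.4% of all 15900 genes were, and 1 was lower, where 14.5% of all genes were. The median log2 fold-change was 0.10 over the members and 0.01 over all genes. After SKF, 11 members were higher, against 16.7% of all 16080 genes, and 1 was lower, against 14.6%. The medians were 0.12 over the members and 0.04 over all genes. The share of higher members was thus close to that of all genes in both comparisons, and the share of lower members was smaller. Members and all genes were not matched for read number, so that these shares are not like for like. The counting interval included 0 in 13 of the 59 members and 7001 of all genes after SNa. After SKF it did so in 6 members and 6189 genes. The spread of the calls over the roles was not tested. In both treated pools the collagen hydroxylases and chaperones were all above the control, whereas the signal peptidase subunits were all below it. For *mia3*, *spcs1* and *spcs2* little of this was left against genes of like length, as given below.

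The 6 members called higher in both comparisons were *plod2*, *serpinh1b*, *canx*, *ddit3*, *sec16a* and *sec22a*. After SNa alone the call also took in *calr3b*, and after SKF alone *p4ha1b*, *p4ha2*, *plod1a*, *ero1b* and *kdelr3*. The lower calls were *sec11a* after SNa and *spcs3* after SKF, and no member was called in opposite directions. Both comparisons divide by the same control pool, which by itself favours shared calls over opposite ones. The overlap of calls was not counted over all genes, so it is no result about the members. Several calls lay close to the cut. After SNa, *ddit3* stood just inside at 0.518 and *plod1a* just outside at 0.496, and after SKF, *kdelr3* stood inside at 0.505 and *sec31a* outside at 0.430.

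**Figure D1:**
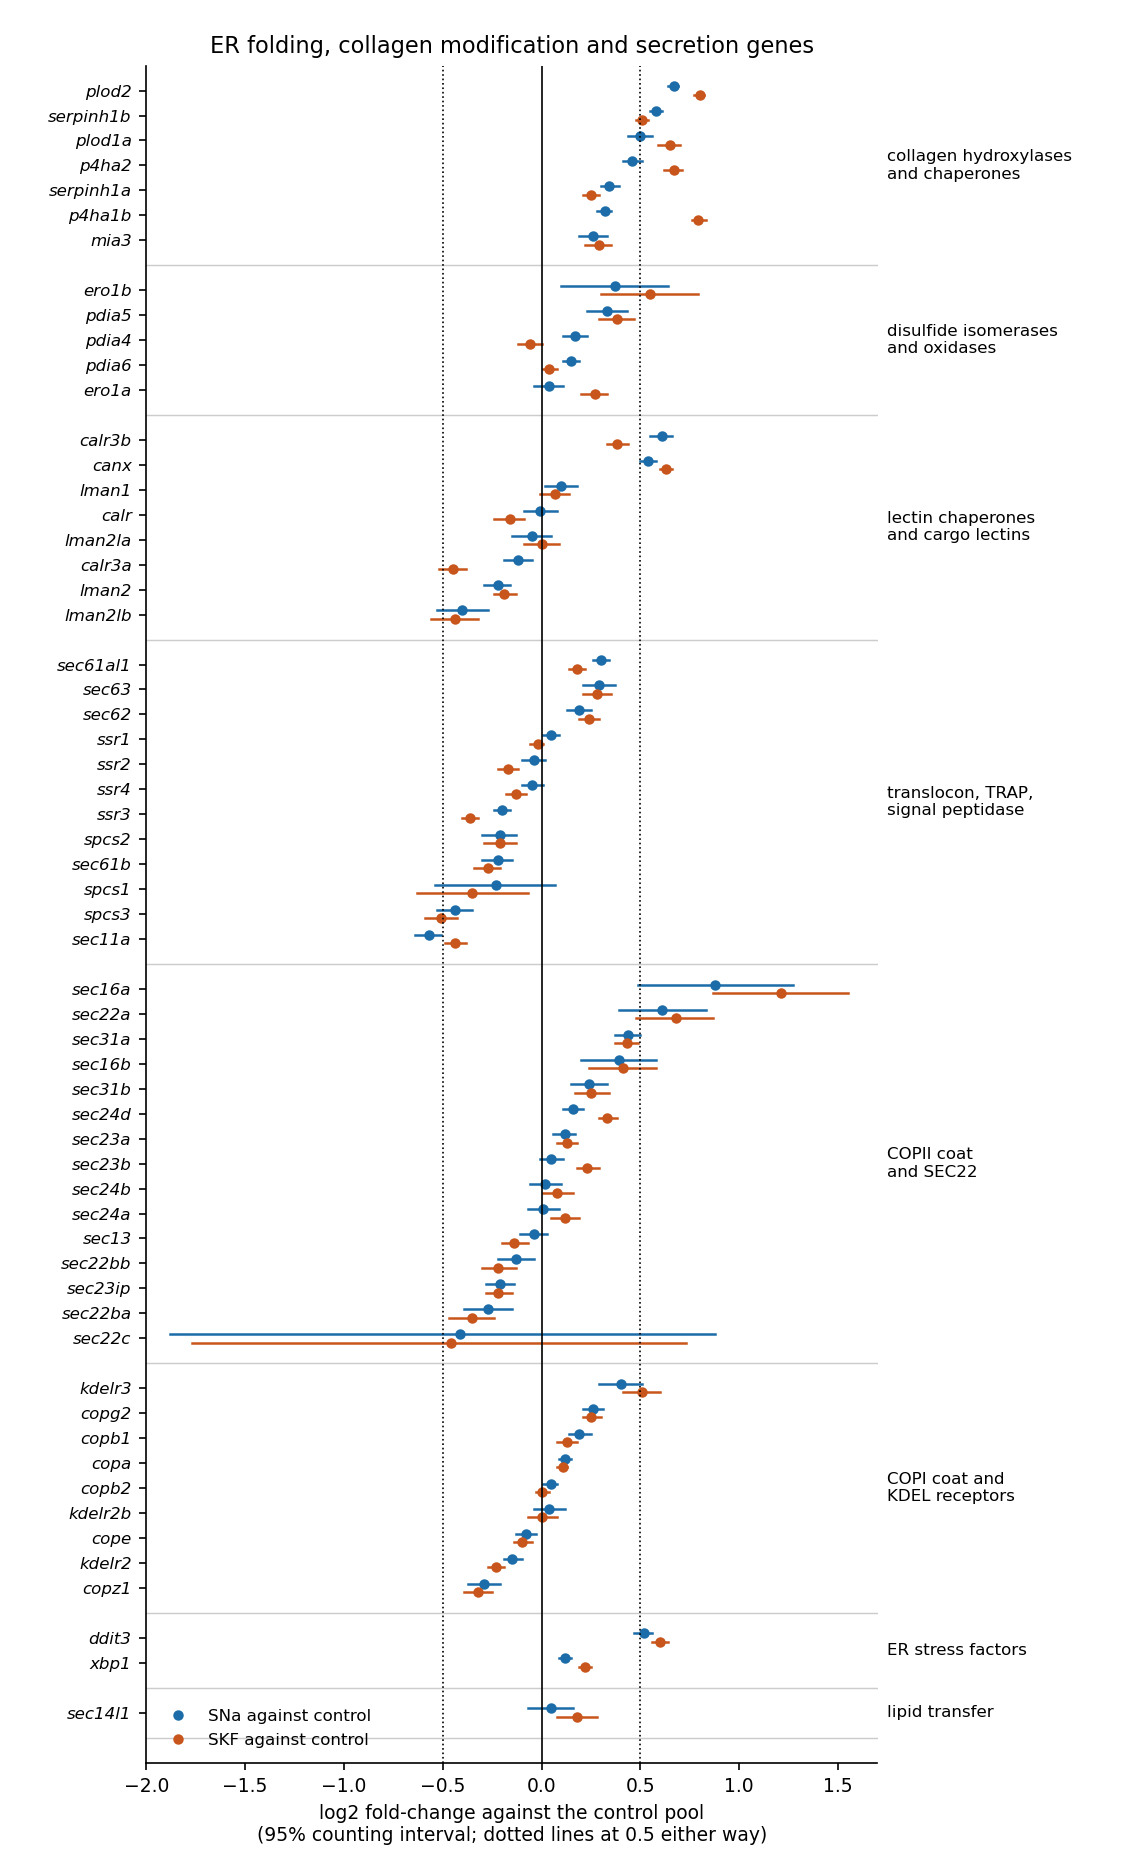
Log2 fold-change of all 59 members against the control pool after SNa (blue) and SKF (orange), grouped by role, with 95% counting intervals as lines and the cut of 0.5 as dotted lines. The 7 collagen hydroxylases and chaperones lie right of 0 in both comparisons, from 0.25 to 0.80, and the 4 signal peptidase subunits (*sec11a* and *spcs1* to *spcs3*) lie left of it.

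Collagen hydroxylases and collagen chaperones had 7 members. Their median log2 fold-change was 0.46 after SNa, with 2 called higher, and 0.65 after SKF, with 5 called higher. No member of the group was below the control, and each counting interval excluded 0. Of the hydroxylases among the members, 1 of 4 was called after SNa (median 0.48) and 4 of 4 were after SKF (median 0.73). Of all genes, 12.4% were higher after SNa and 16.7% after SKF. Hydroxylase genes named only in the protein description were not counted here. Of these, *p4ha1a* was at 0.49 and 0.50, *plod3* at 0.30 and 0.30 and *p4ha3* at 0.25 and 0.05 after SNa and SKF.

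The lysyl hydroxylase gene *plod2*, whose product modifies the ends of collagen chains for cross-linking, had 340 CPM in the control, 544 in the SNa and 594 in the SKF pool. Its log2 fold-change was 0.67 (0.64 to 0.69) after SNa and 0.80 (0.77 to 0.82) after SKF, the latter a 1.74-fold higher value. Both treated pools thus lay well above the control and close to each other. The related *plod1a*, a lysyl hydroxylase of the helical part, had 80.5, 114 and 127 CPM. It was 0.50 (0.44 to 0.56) above the control after SNa and 0.65 (0.59 to 0.70) after SKF.

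Of the member genes for the catalytic subunit of prolyl 4-hydroxylase, *p4ha1b* had 223 CPM in the control, 280 in the SNa and 389 in the SKF pool, with a log2 fold-change of 0.32 (0.28 to 0.35) after SNa and 0.79 (0.76 to 0.83) after SKF. Its 3 pools were well spaced, with SKF highest. *p4ha2* had 116, 161 and 185 CPM, at 0.46 (0.41 to 0.51) after SNa and 0.67 (0.62 to 0.71) after SKF.

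The HSP47 genes showed the reverse order of the treated pools. *serpinh1b* had 267 CPM in the control, 403 in the SNa and 381 in the SKF pool, a log2 fold-change of 0.58 (0.55 to 0.61) after SNa and 0.51 (0.48 to 0.54) after SKF. Its copy *serpinh1a* had 142, 182 and 170 CPM and stayed inside the cut, at 0.34 (0.30 to 0.39) and 0.25 (0.21 to 0.29). *mia3*, the TANGO1 gene, had 63.1, 76.2 and 77.3 CPM, at 0.26 (0.19 to 0.33) after SNa and 0.29 (0.22 to 0.35) after SKF. By summed reads, each of the HSP47 and TANGO1 genes was thus above the control in both treated pools, by less than *plod2*. The larger *mia3* unigenes differed. The one with 5993 control reads, at 68.0% identity, was at 0.37 (0.28 to 0.45) and 0.41 (0.33 to 0.49). The one with 2736, at 88.7% identity, was at -0.03 (-0.17 to 0.11) and -0.03 (-0.16 to 0.10).

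**Figure D2:**
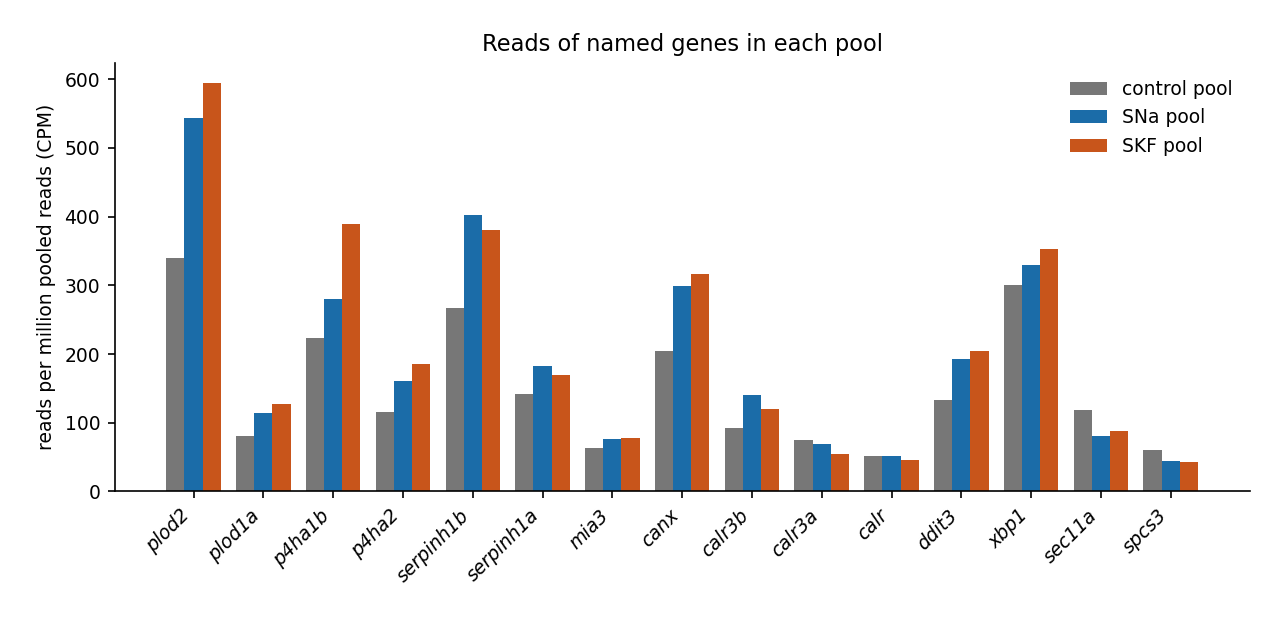
CPM of 15 members in the control (grey), SNa (blue) and SKF (orange) pools, 1 pooled value per bar and no error bar. *plod2* stood at 340, 544 and 594 CPM and *p4ha1b* at 223, 280 and 389, whereas *sec11a* was at 119 CPM in the control and under 90 in both treated pools. Bars compare pools within a gene, not genes with each other, since values are not divided by transcript length.

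Genes of the same task outside the members were read from lists of the pathway. Of 25 other collagen-modifying and collagen-folding genes, 7 were higher and 2 lower after SNa (median 0.38), and 10 were higher and none lower after SKF (median 0.41). The matrix protein gene *sparc*, whose product binds collagen, was at 0.68 and 0.78, *pcolcea*, an enhancer of procollagen cleavage, at 0.58 and 0.49, and *p3h3*, a prolyl 3-hydroxylase family gene, at 0.62 and 0.69 after SNa and SKF. The lysyl oxidase family gene *loxl3a* was at 0.44 after SNa and 1.17 after SKF, and the collagen galactosyltransferase gene *colgalt2* at -0.66 and -0.11. The fibrillar collagen chains, the cargo of these enzymes, had 9 of 13 symbols higher and 1 lower in each comparison, with medians of 0.58 after SNa and 0.72 after SKF. Their reads summed to 14376 CPM in the control, 22881 in the SNa and 24063 in the SKF pool. *col1a1a* was at 0.72 and 0.77, and *col2a1a*, a chain of cartilage collagen, was the lower one at -0.97 and -0.95.

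The fibroblast and mural cell markers, 3 of which are collagen chains in that list too, had medians of 0.57 after SNa and 0.59 after SKF, on the same side of the control as the hydroxylases. After SNa 14 of 18 symbols were above 0 and 4 below, and after SKF 16 of 21 were above and 5 below. Among those that are not collagens, *dcn* was at 0.47 and 0.48 and *lum* at 0.79 and 0.85, whereas *tagln* was at -0.11 and -0.20 and *rgs5b*, a pericyte marker, at -1.67 and -1.26. The radial glia markers had medians of -0.60 and -0.58, with 12 of 15 symbols below 0 after SNa and 13 after SKF. The fatty acid binding protein gene *fabp7a* was at -4.93 and -4.84, *gja1* at -0.08 and -0.15, and *nes* and *notch1b* lay above the control, at 0.50 and 0.51 after SNa and 0.28 and 0.64 after SKF. The part of these markers in the higher values of the collagen genes was not tested.

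**Figure D3:**
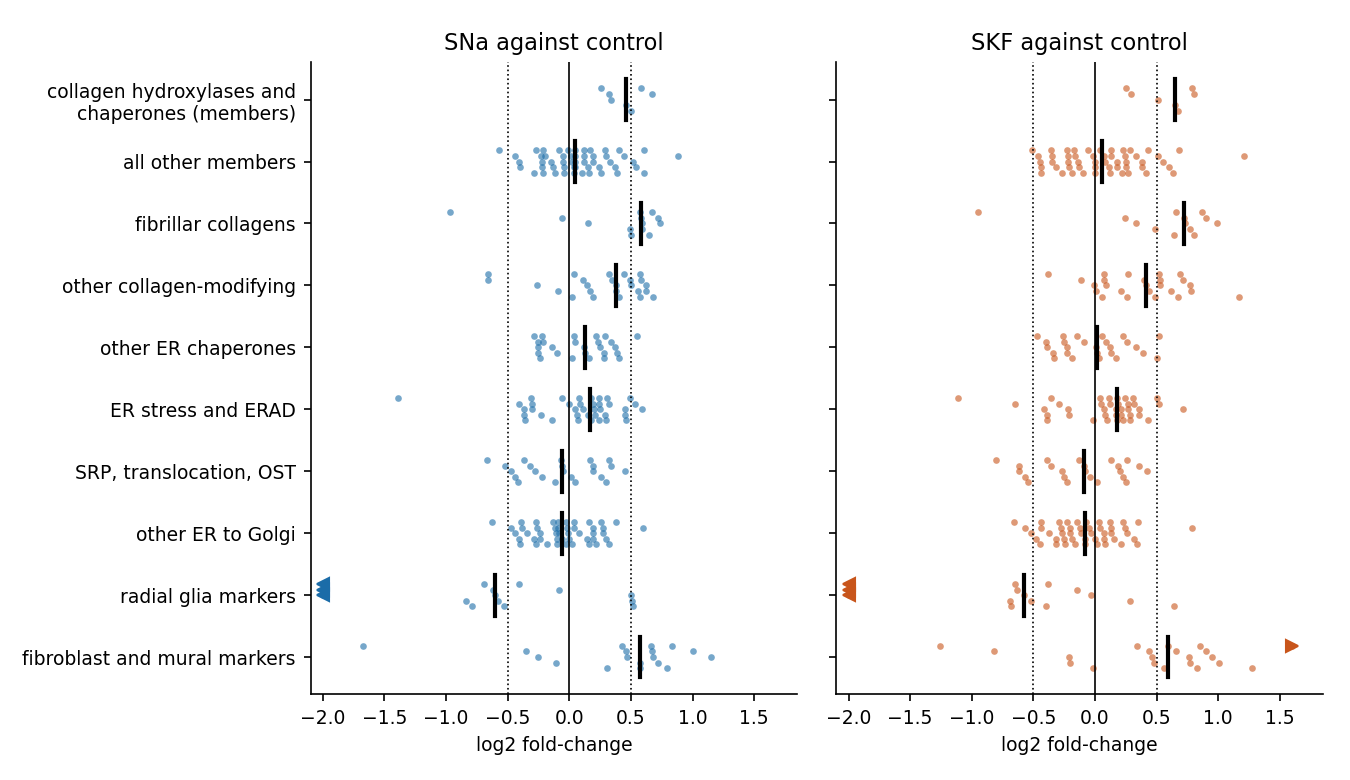
Log2 fold-change of each gene (points) and the median of each group (black bars) after SNa (left) and SKF (right), with the cut of 0.5 as dotted lines; triangles mark genes beyond the axis. The medians of the hydroxylase and chaperone group (0.46 and 0.65) and the fibrillar collagens (0.58 and 0.72) lie to the right. So do those of the other collagen-modifying genes (0.38 and 0.41) and the fibroblast and mural markers (0.57 and 0.59). Those of the radial glia markers (-0.60 and -0.58) lie to the left, and those of the remaining ER lists within 0.2 of 0.

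Disulfide isomerases and oxidases make and rearrange the disulfide bonds of new proteins. None of the 5 members was called after SNa (median 0.17) and 1 was after SKF (median 0.27). *pdia6* had 233 CPM in the control, 262 in the SNa and 242 in the SKF pool, at 0.15 (0.11 to 0.19) and 0.04 (0.01 to 0.08). *pdia4* had 96.3, 109 and 92.9 CPM, so that it was above the control after SNa at 0.17 (0.11 to 0.23) and just under it after SKF at -0.06 (-0.12 to 0.00). *pdia5* was at 0.33 and 0.38.

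Of the ER oxidases, which pass electrons from the isomerases to oxygen, *ero1a* had 62.9, 65.1 and 76.0 CPM. It was at 0.04 (-0.04 to 0.11) after SNa and 0.27 (0.20 to 0.33) after SKF. *ero1b* rested on few reads (616, 352 and 530) and was called after SKF at 0.55 (0.30 to 0.79), with 0.37 (0.10 to 0.64) after SNa. Its intervals reached across the cut in both comparisons.

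The lectin chaperones calnexin and calreticulin bind the sugar chains of folding glycoproteins. *canx*, the calnexin gene, had 204 CPM in the control, 299 in the SNa and 317 in the SKF pool, at 0.54 (0.50 to 0.58) and 0.63 (0.60 to 0.66). The calreticulin genes differed among themselves. *calr3b* had 91.8, 141 and 120 CPM, at 0.61 (0.55 to 0.66) after SNa and 0.38 (0.33 to 0.44) after SKF. With names from the protein description added, *calr3b* was inside the cut in both, at 0.48 (0.43 to 0.52) and 0.20 (0.16 to 0.24). *calr3a* had 74.7, 69.2 and 55.1 CPM, at -0.12 (-0.19 to -0.05) and -0.45 (-0.52 to -0.38). *calr* had 51.1, 51.2 and 45.8 CPM, at -0.01 (-0.09 to 0.08) and -0.16 (-0.24 to -0.09). By summed reads, the copies *calr3a* and *calr3b* thus lay on opposite sides of the control in both treated pools. All 3 calreticulin genes were lower in the SKF than in the SNa pool. The *calr3a* unigenes differed after SNa. The one matched to residues 1 to 285 was at 0.04 (-0.07 to 0.15), and the one matched to residues 263 to 350 at -0.24 (-0.33 to -0.14). After SKF they were at -0.23 and -0.61.

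Of the cargo lectins, which carry glycoproteins out of the ER, none of 4 was called. *lman1* had 54.2, 58.5 and 57.0 CPM, at 0.10 and 0.07, and *lman2* had 92.4, 79.7 and 81.6 CPM, at -0.22 (-0.29 to -0.16) and -0.19 (-0.24 to -0.13). *lman2lb* was lowest of them, at -0.40 and -0.44, and *lman2la* was at -0.05 and 0.00.

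Other ER chaperones from the pathway list were mostly inside the cut. Of 26 genes, 1 was higher and 0 lower in each comparison, with medians of 0.13 after SNa and 0.02 after SKF. The abundant ER chaperone gene *hspa5*, which encodes BiP, had 520 CPM in the control, 614 in the SNa and 445 in the SKF pool, at 0.23 and -0.23. Against each other the treated pools differed by 0.49 in *hspa5*, by 0.30 in *hsp90b1* and by 0.36 in *calr3a*, with SNa above SKF in all 3. The higher gene was *uggt1*, a folding sensor of glycoproteins, at 0.55 after SNa and *txndc5*, a disulfide isomerase family gene, at 0.52 after SKF.

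The lowest member in each comparison came from translocation into the ER, *sec11a* after SNa and *spcs3* after SKF. The 12 genes of the translocon, the associated TRAP complex and the signal peptidase had no higher call and 1 lower call in each comparison, with medians of -0.12 after SNa and -0.19 after SKF. The 4 signal peptidase subunits, which cut off the signal peptide, were all below the control, with medians of -0.34 and -0.39. *sec11a*, a catalytic subunit, had 119 CPM in the control, 80.4 in the SNa and 87.9 in the SKF pool, at -0.57 (-0.64 to -0.51) and -0.44 (-0.49 to -0.38). *spcs3* had 59.9, 44.5 and 42.3 CPM, at -0.44 (-0.53 to -0.35) and -0.51 (-0.59 to -0.43). The treated pools lay close together and under the control for both genes. *spcs2* was at -0.21 in both comparisons, and *spcs1*, on few reads (662, 249 and 307), at -0.23 (-0.54 to 0.07) and -0.35 (-0.63 to -0.07).

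The TRAP complex sits beside the channel and assists the entry of some proteins. *ssr1* had 217, 226 and 215 CPM, at 0.05 and -0.02, and *ssr3* had 197, 173 and 154 CPM, at -0.20 (-0.24 to -0.16) and -0.36 (-0.40 to -0.32). *ssr4* was at -0.05 and -0.13 and *ssr2* at -0.04 and -0.17, so that TRAP medians were -0.04 after SNa and -0.15 after SKF. All 4 TRAP genes were below the control after SKF, *ssr1* by less than its counting interval.

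Of the channel genes, *sec61al1* had 177, 220 and 203 CPM, at 0.30 (0.26 to 0.34) and 0.18 (0.14 to 0.22). *sec62* and *sec63*, whose products help proteins enter after their synthesis, were at 0.19 and 0.29 after SNa and 0.24 and 0.28 after SKF. *sec61b* lay below the control at -0.22 and -0.27. Its deposited protein description names a SEC61 alpha-like protein rather than the beta subunit, so that the symbol is uncertain from the description alone. The *sec61b* match, at 95.9% identity, ended at residue 97, whereas that of *sec61al1* ended at residue 476.

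In the wider list of signal recognition, translocation and oligosaccharyl transferase genes, 0 of 23 were higher, 2 were lower after SNa and 5 after SKF, with medians of -0.06 and -0.09. The 2 were the oligosaccharyl transferase subunit genes *ost4* (-0.67) and *ostc* (-0.52). After SKF these stood at -0.80 and -0.62, and *srp19* at -0.62, *srp9* at -0.57 and *dad1* at -0.54 were lower too. The signal recognition particle genes *srp9* and *srp19* encode proteins that bind its RNA.

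COPII carriers leave the ER. Among 11 coat members only *sec16a*, which organises exit sites, was called, at 0.88 (0.49 to 1.27) after SNa and 1.21 (0.87 to 1.55) after SKF, on 252, 205 and 343 reads. The other coat members lay between -0.22 and 0.44. *sec24d*, an adaptor that selects cargo, had 139, 157 and 177 CPM, at 0.16 (0.11 to 0.21) and 0.33 (0.29 to 0.38). *sec23a*, of the inner coat, had 96.7, 106 and 106 CPM, at 0.12 and 0.13, and its relative *sec23b* had 93.3, 97.3 and 110 CPM, at 0.05 and 0.23.

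The remaining COPII genes of the members filled the same range. *sec23ip*, whose product binds the inner coat, had 85.3, 74.3 and 73.8 CPM, at -0.21 and -0.22. *sec31a*, of the outer coat, was at 0.44 and 0.43. Of the SEC22 genes, which encode membrane fusion proteins and relatives of them, *sec22a* was called higher at 0.61 (0.39 to 0.83) and 0.68 (0.48 to 0.87) on 867, 584 and 816 reads. The other 3 were below the control, down to *sec22c* at -0.41 and -0.46 on only 42, 14 and 18 reads.

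COPI carriers return to the ER, and none of the 6 coat members was called in either comparison. Their medians were 0.08 after SNa and 0.06 after SKF. *copa* had 328, 359 and 355 CPM, at 0.12 and 0.11, *copb2* had 274, 285 and 276 CPM, at 0.05 and 0.00, and *cope* had 155, 148 and 145 CPM, at -0.08 and -0.10. *copz1* was lowest at -0.29 and -0.32 and *copg2* highest at 0.26 and 0.25.

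Of the KDEL receptors, which fetch ER proteins back, *kdelr2* had 211, 192 and 181 CPM, at -0.15 (-0.19 to -0.10) and -0.23 (-0.27 to -0.19). *kdelr3* had 26.1, 34.7 and 37.2 CPM and was called after SKF, at 0.51 (0.41 to 0.60), with 0.40 (0.29 to 0.51) after SNa. *kdelr2b* was at 0.04 and 0.00. The receptor genes thus lay on both sides of the control.

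In the list of other coat, tether and cargo-receptor genes, 1 of 47 was higher and 1 lower after SNa, and 1 was higher and 3 were lower after SKF, with medians of -0.06 and -0.08. The higher gene was the cargo receptor family gene *tmed7*, with 435, 666 and 754 CPM, at 0.60 and 0.79.

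The ER stress factors gave 1 call in each comparison. *ddit3*, whose product CHOP is raised by several stress pathways, had 133, 193 and 204 CPM, at 0.52 (0.47 to 0.56) and 0.60 (0.56 to 0.64). *xbp1*, whose messenger is spliced by the sensor IRE1 into the active form, had 300, 329 and 353 CPM, at 0.12 (0.09 to 0.15) and 0.22 (0.19 to 0.25). The summed reads do not separate spliced from unspliced *xbp1*. Its unigenes differed. The one matched to residues 1 to 383 was at 0.20 (0.16 to 0.25) after SNa and 0.29 (0.25 to 0.33) after SKF. The one matched to residues 1 to 168 was at 0.01 (-0.05 to 0.06) and 0.13 (0.09 to 0.18). Among 38 other genes of ER stress and ER-associated degradation, 2 were higher and 1 lower after SNa, and 2 higher and 2 lower after SKF, with medians of 0.16 and 0.17. After SNa the higher genes were *herpud1* at 0.53 and *creb3l3b* at 0.59, the latter on 18 control reads. After SKF they were *creb3l1* at 0.71, a factor known in mammals to act on collagen genes, and *creb3l2* at 0.52. *ddit4*, a stress gene that also answers to low oxygen and glucocorticoids, was the largest lower one, at -1.39 and -1.11, and *atf4* was at 0.06 and 0.05.

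Set against each other after joint scaling of the pools, SNa and SKF differed by over 0.5 in 0 of the 59 members in either direction, where 4.54% of 15754 genes were higher in the SNa pool and 6.14% lower. The member median was 0.04. Here too members and all genes were not matched for read number. The counting interval included 0 in 28 of the 59 members and 12212 of the 15754 genes. All 4 hydroxylases among the members were lower in the SNa than in the SKF pool, from -0.10 in *plod2* to -0.44 (-0.48 to -0.41) in *p4ha1b*. Hydroxylase genes named only in the protein description, and so not members, did not share this order. Of these, *p4ha1a* was at 0.02, *plod3* at 0.04 and *p4ha3* at 0.24 (0.06 to 0.41). All 4 TRAP genes were higher in the SNa pool, from 0.10 to 0.19, and *calr3a* had the largest difference that way, at 0.36 (0.28 to 0.44). Whether these differences exceed the spread between cultures cannot be said from 1 value per group.

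Most members were carried by several unigenes, 45 of the 59, and 14 by 1. Of the 136 unigenes, 111 matched their protein at 80% identity or more (median 91.3%), and 133 matched a zebrafish protein, so that a symbol names the closest zebrafish gene and can join goldfish copies. For 67 pairs of unigenes of 1 symbol that matched the same part of the protein, over 35 symbols, the median gap between the log2 fold-changes was 0.15 after SNa and 0.10 after SKF, and 49 and 51 pairs were under 0.2 apart. The sources used here do not give how reads shared by near-identical unigenes were assigned, so that such pairs are not independent. The *serpinh1b* unigenes, at 19835 and 19614 control reads, had equal values of 0.58 after SNa and 0.51 after SKF.

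Some pairs differed beyond their counting intervals, 17 after SNa and 15 after SKF. The *p4ha1b* unigenes stood at 0.19 (0.14 to 0.25) and 0.45 (0.40 to 0.50) after SNa and at 0.63 (0.58 to 0.67) and 0.97 (0.93 to 1.02) after SKF, so that both were further from the control after SKF. The *sec11a* unigenes stood at -0.76 (-0.84 to -0.68) and -0.22 (-0.32 to -0.11) after SNa, and the summed call rested on the former. The widest gap was in *sec62*, at 0.80 after SNa and 0.89 after SKF, where 1 of 5 unigenes was below the control and 4 above. The 4 *canx* unigenes ran from 0.48 to 0.68 after SNa and from 0.51 to 0.82 after SKF, and the 3 *ddit3* unigenes from 0.46 to 0.61 and from 0.53 to 0.71.

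**Figure D4:**
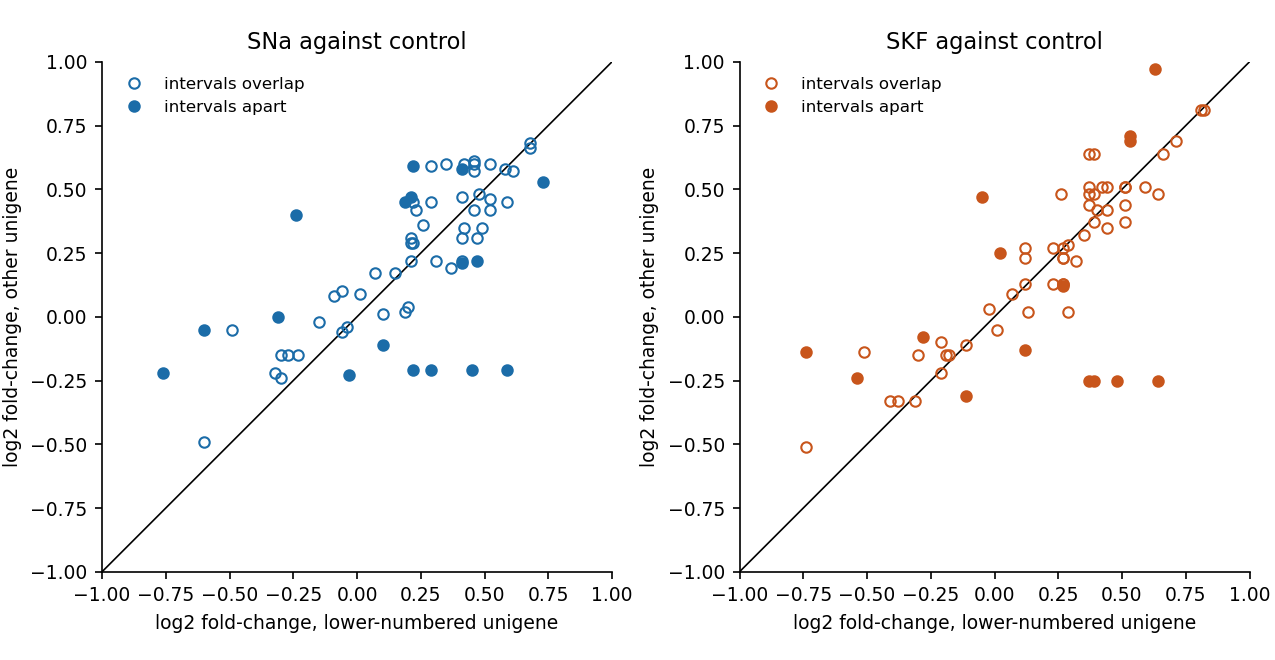
Log2 fold-change of paired unigenes that carry the same member symbol and match the same part of its protein, 67 pairs after SNa (left) and SKF (right), with the line of equality; filled points have counting intervals that do not overlap. Most points lie near the line (median gap 0.15 and 0.10), and those far below it on the right are *sec62* pairs.

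Fold-changes also moved with the length of the matched protein. Over all genes the median log2 fold-change after SNa was -0.26 for proteins matched up to residue 150 and 0.21 for those matched beyond residue 1000, and after SKF it was -0.26 and 0.26. Across genes, which are not independent replicates and share their libraries, Spearman's rho between length and log2 fold-change was 0.26 after SNa and 0.27 after SKF over all genes, and 0.54 and 0.57 over the 59 members. The members called lower, *sec11a* after SNa and *spcs3* after SKF, were short, with matches that ended between residues 151 and 300. Of all genes in that class, 19.9% were lower after SNa and 21.3% after SKF. The members called higher after SNa were 1 of 16 that ended at residues 151 to 300 and 4 of 21 at 301 to 600. They were also 1 of 12 at 601 to 1000 and 1 of 8 beyond 1000. After SKF these classes held 2, 6, 2 and 1 higher members. Over all genes, the share called higher in these classes was 10.2%, 11.6%, 13.3% and 18.3% after SNa. After SKF it was 12.7%, 16.1%, 19.1% and 24.6%.

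Less the median of all genes of like length, *plod2* was at 0.55 after SNa and 0.65 after SKF, *p4ha1b* at 0.31 and 0.76, *canx* at 0.53 and 0.59 and *ddit3* at 0.65 and 0.73. All 7 members called higher after SNa were still past 0.5, and 9 of the 11 after SKF, without *plod1a* and *serpinh1b*. The lower calls were not, as *sec11a* was at -0.43 after SNa and *spcs3* at -0.38 after SKF. On the same scale *spcs1* was at 0.03 after SNa and -0.09 after SKF, and *spcs2* at -0.08 in both. The collagen chaperone group's *mia3* was at 0.05 and 0.02. The part of transcript length or RNA quality in these values was not tested.

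**Figure D5:**
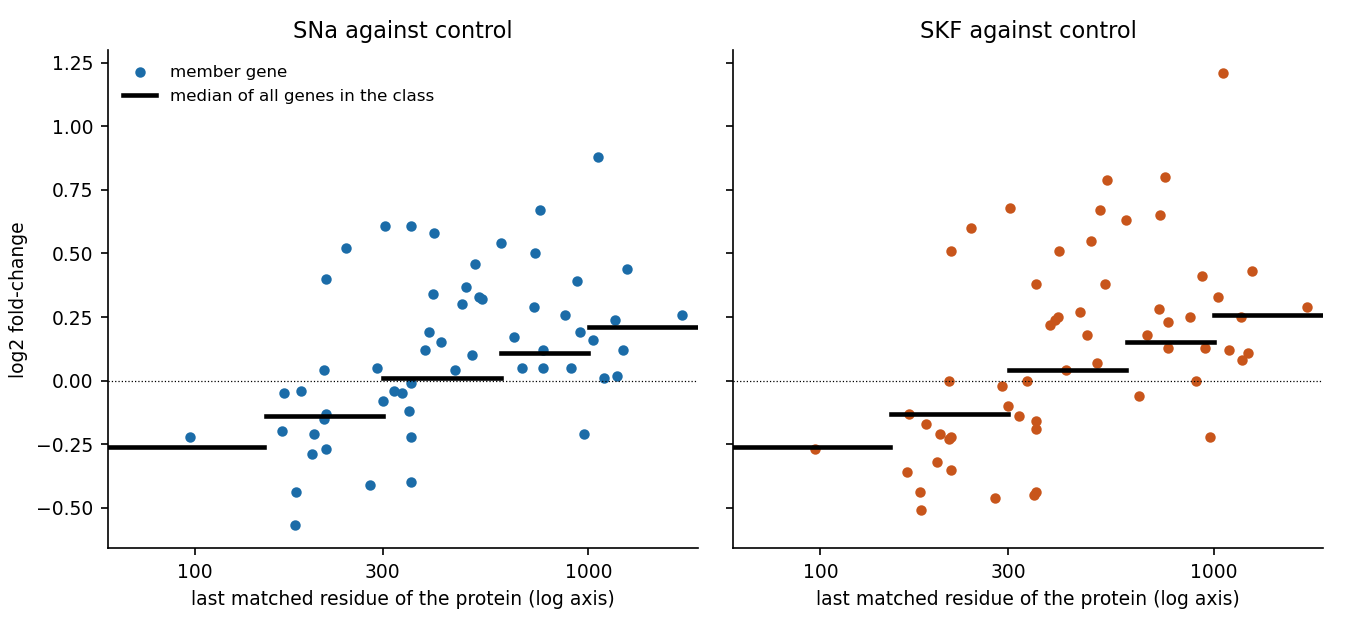
Log2 fold-change of each member (points) after SNa (left) and SKF (right) against the last residue of the protein matched by its unigenes, on a log axis, with the median of all genes in 5 classes of length as black bars. The class medians climb from -0.26 for the shortest class to 0.21 and 0.26 for the longest, and the members follow them with a wide scatter.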

How the data were processed

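Poly(A) RNA of 10 cultures was sequenced in paired ends. The authors built a Trinity assembly without a genome, reduced it to unigenes and matched these by BLAST to chordate proteins. The deposited signal is 1 normalised value per group and unigene, the group's pooled reads over a size factor that the authors took from DESeq, separately in each comparison. The deposited percent identity is that of the unigene to its matched protein, as the authors gave it. How reads were assigned to unigenes is not stated in the sources at hand. Columns of the authors' own comparison (fold change, log2, P, FDR, direction) were not used.

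All non-zero values were whole multiples of 1 read (100%, tolerance 0.01), so that pooled read numbers could be recovered. They were mostly even (74.8% in the control pool, 79.7% in SNa and 78.0% in SKF), so reads were divided by 2 for exact Clopper-Pearson intervals at 95%, which cover counting error only. Values were summed by gene symbol, a mean of at least 10 was required, and a group at 0 was set to 3 reads (0.0203, 0.0463 and 0.0346 CPM in the control, SNa and SKF pools). SNa and SKF were compared after a joint median-of-ratios scaling, since the authors scaled their tables apart. The code for fold-changes and intervals was checked on simulated counts. Members, lists and markers were chosen with earlier results of these data known. Values are given for *serpinh1*, *xbp1*, *ddit3*, calreticulin and calnexin genes, and the 4 members of each role with the most control reads. They are also given for members past 0.5 with a mean of at least 100. For some of these the text leaves out CPM or the interval. The lipid transfer gene *sec14l1* was at 0.05 (-0.07 to 0.16) after SNa and 0.18 (0.08 to 0.28) after SKF. Others named, among them unigenes and genes of the lists, were chosen after their values were seen. Python 3.11.15, pandas 2.3.3, numpy 2.4.6, scipy 1.17.1 and matplotlib 3.10.9 were used. Alternatives were another scaling, minimum, pseudocount, cut, choice of unigenes and joining of gene copies.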

Additional observations from a re-analysis of the deposited data

How the results depend on the processing

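No paired analysis was possible because the deposited columns hold 1 pooled value per group and carry no replicate number. For the same reason leaving out each culture, a replicate block, and edgeR or DESeq2 on counts per culture were not run. With a cut of 1 in place of 0.5, 0 members were higher after SNa and 1 after SKF, and 0 were lower in each. With the unigene of highest mean for each gene, 2 were lower after SNa, 4 after SKF and 1 in SNa against SKF. This setting took *canx* and *ddit3* out of the 7 higher after SNa. Scaling to CPM left 0 lower after SKF, and joint scaling gave 2 lower. Joint scaling took *kdelr3* and *serpinh1b* out of the higher calls after SKF. Without a stretch of unigene numbers whose median over all unigenes was 0.23 after SNa and 0.07 after SKF, 51 members were left, with 2 lower in each comparison, a median of 0.04 after SKF and 0.12 in SNa against SKF. This setting left *sec16a*, *sec22a* and *p4ha2* out of the higher calls. Less the median of the length class, an alternative chosen after seeing the data, 0 were lower after SNa and after SKF, and the SKF median was 0.02. Other alternatives (a minimum of 100 or none, a pseudocount of 1, at least 80% identity, copies a and b joined, and, chosen after seeing the data, names from the protein description) kept every count within 1.5 times. Identity of at least 80% took out *ddit3* and *sec16a*, joining copies *calr3b* and *sec16a* after SNa and *ero1b* and *serpinh1b* after SKF, and description names *calr3b* after SNa. No named member changed sign past the cut. Counting limits *sec22c*, *sec16a*, *ero1b* and *spcs1*, which have the fewest reads.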

Other observations

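In 24 unigenes the gene name cell is empty while the protein description carries a symbol of the same families. Of these, 20 add 7 genes that were not counted with the members: *copz2*, *p4ha1a*, *p4ha3*, *p4hb*, *pdia3*, *plod3* and *sec24c*. *p4hb* encodes protein disulfide isomerase, which is also the second subunit of prolyl 4-hydroxylase. It had 587 CPM in the control, 809 in the SNa and 811 in the SKF pool, with a log2 fold-change of 0.45 (0.43 to 0.47) after SNa and 0.46 (0.44 to 0.48) after SKF. *p4ha1a*, the copy of *p4ha1b*, had 191, 270 and 272 CPM, at 0.49 (0.45 to 0.52) and 0.50 (0.47 to 0.54), the latter just past the cut. Between SNa and SKF *p4ha1a* differed by 0.02 (-0.02 to 0.06), where *p4ha1b* stood at -0.44 (-0.48 to -0.41). The lysyl hydroxylase gene *plod3* had 237, 294 and 294 CPM, at 0.30 (0.27 to 0.34) and 0.30 (0.27 to 0.33), and *pdia3*, the isomerase that works with calnexin, had 811, 977 and 893 CPM, at 0.26 and 0.13. *p4ha3* was at 0.25 and 0.05, *copz2* at 0.18 and 0.22 and *sec24c* at 0.19 and 0.12. None of the 7 was below the control in either treated pool, with 0 called higher after SNa and 1 after SKF.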
